A study of Mus musculus with 12 samples.

Results

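The comparison described here sets untreated SMA cultures against untreated control cultures, gene by gene. Its members are the 3 untreated libraries of genotype Smn-/-;SMN2, written SMA (spinal muscular atrophy) below, and the 3 untreated libraries of genotype Smn+/+;SMN2, called control. They were chosen by genotype and treatment from 12 mRNA sequencing libraries of primary mouse motoneuron culture. The other 6 libraries, 3 of each genotype, had received 0.5 µM R-Roscovitine. All 12 are of the FVB strain, and both genotypes carry the human SMN2 transgene, so the groups differ in the mouse Smn1 gene alone as far as the labels say. The labels do not say that libraries of 1 group came from separate cultures or embryos. A p-value here therefore reflects the spread among libraries only, and some of that spread may be technical.

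Smn1 encodes the survival motor neuron protein, SMN. With the Gemin proteins it loads the ring of Sm proteins onto small nuclear RNAs, which builds the small nuclear ribonucleoproteins (snRNPs) that splice pre-mRNA. Humans have a second gene, SMN2, whose transcripts mostly skip an exon and give little stable protein, and loss of SMN1 causes spinal muscular atrophy, in which spinal motoneurons degenerate. A mouse without Smn1 survives embryonic life only with such a transgene. Spinal motoneurons arise from ventral progenitors under the control of Sonic hedgehog, while Notch signalling keeps progenitors from differentiating and favours glial fates later.

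Values are FPKM per gene, fragments counted per length of transcript and per depth of the library, as the authors deposited them. The 6 untreated libraries were close in detection, with 14463 to 14540 genes at 1 FPKM or more. The depth read from the steps between low values was 27.2 to 28.7 M reads in control libraries and 21.2 to 25.3 M in SMA libraries. Transcripts of mitochondrial DNA made up 17.7% to 19.4% of all FPKM in controls against 19.2% to 23.0% in SMA libraries, and the feature Gm26924 took 2.83% to 3.81% and 4.52% to 4.85%. Depth and the Gm26924 share thus separated the genotypes, and their part in the results below was not tested. On the first principal component of the untreated libraries, which held 39.8% of the variance, control libraries 1, 2 and 3 lay at -33.3, -18.0 and -3.22 and SMA libraries at 24.0, 9.21 and 21.3. Control library 3 correlated more closely with SMA library 2 (r = 0.987 across genes, which are not independent replicates) than with control library 1 (r = 0.972).

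Smn1 was the 1 gene that passed the test in the main fit, and it was lower in SMA. Smn1 (ENSMUSG00000021645, GRCm38 chromosome 13, 100124852 to 100137690, protein coding) had 30.9, 41.2 and 51.2 FPKM in control libraries. It had 6.11, 7.19 and 8.58 FPKM in SMA. The groups were far apart: the interval that Cufflinks gives around the highest SMA value ended at 10.6 FPKM, and that around the lowest control value began at 28.0 FPKM. The mean in SMA stood at 17.7% of that in control. On the log2 scale Smn1 fell by 2.29 ± 0.19 (SE; limma, adjusted p = 0.000265). An exact two-sided permutation test of the 6 values gave p = 0.1, and no smaller p can be reached with 3 against 3. Leaving out any 1 of the 6 untreated libraries gave differences from -2.49 to -2.12. Reads of the human SMN2 transgene could align to the mouse gene, and alignment settings were not given in the sources used here, so the remaining SMA signal cannot be assigned to either gene.

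Beyond Smn1 no gene passed the test in the main fit, and the differences given for other genes are descriptions. Of 14978 tested genes, 1 passed an adjusted p of 0.05 (0.00668%), and 2115 had an unadjusted p under 0.05 (14.1%), 1073 of them higher (7.16%) and 1042 lower (6.96%) in SMA. The second lowest adjusted p was 0.217. A gene is called not overlapping here when all 3 SMA libraries lay above, or all 3 below, the 3 control libraries after scaling. By that description 1464 genes were higher (9.77%) and 1515 lower (10.1%) in SMA, together 19.9%, and these shares are the background for each list count below. Complete separation of 3 against 3 has p = 0.1 in an exact two-sided permutation test. Some genes can thus fail to overlap without a difference between the genotypes. The balance depends on the scaling: genes higher in SMA made up 49.1% of the genes not overlapping in the main analysis, 38.4% without scaling (1166 higher and 1867 lower) and 29.2% with a common sum per library (929 higher and 2254 lower). Differences ran from -0.50 at the 5th percentile to 0.47 at the 95th on the log2 scale, with a median of -0.01. A difference above 1 on the log2 scale was seen in 86 genes, of which 76 did not overlap, and one below -1 in 56 genes, of which 35 did not overlap. The log2 values are of scaled FPKM plus 1, which understates the change of genes near or under 1 FPKM. A tested gene needed at least 1 FPKM in at least 3 of 12 libraries, so it could enter through the genotype in which it was higher. The list counts below can hold such genes.

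**Figure D1:**
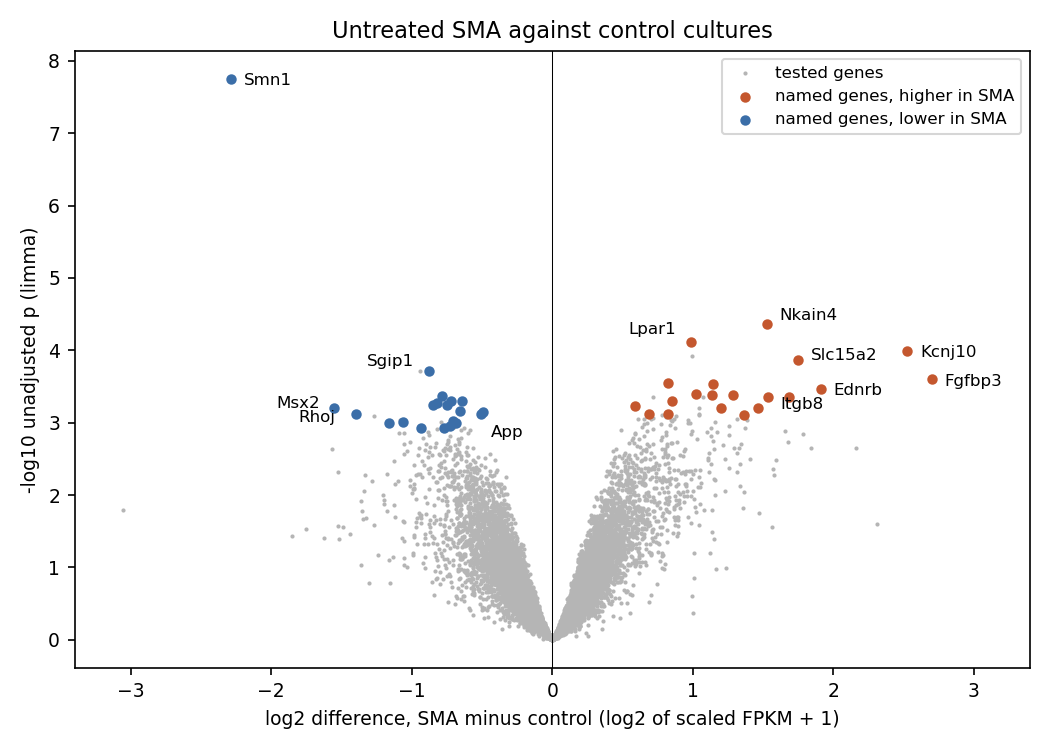
Each of the 14978 tested genes is a point, with the log2 difference of SMA minus control on the horizontal axis and -log10 of the unadjusted limma p on the vertical axis. Smn1 stands alone at the upper left, and the 20 higher and 20 lower named genes form the edges of the remaining cloud.

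The genes that separated the genotypes most clearly upward included receptors, transporters and channels known from glia. Described here are the 20 genes of lowest unadjusted p among those that did not overlap and reached a mean of 5 FPKM in 1 group, so their separation is how they were chosen and is given as a description. All 20 had an adjusted p of 0.217 (limma), and their log2 differences ran from 0.59 to 2.70. Kcnj10, the inwardly rectifying potassium channel Kir4.1 of glia, had 1.93, 0.67 and 2.14 FPKM in controls against 15.1, 8.02 and 18.0 FPKM in SMA. Its lowest SMA value was several times its highest control value, and the log2 difference was 2.53 ± 0.46 (SE). Fgfbp3, a secreted binding protein that releases fibroblast growth factors from the matrix, had 4.06, 5.22 and 15.0 FPKM in controls against 54.4, 30.3 and 73.0 FPKM in SMA. The ratio of the means was 6.49, the log2 difference was 2.70 ± 0.55 (SE), and both groups varied widely.

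Ednrb, the endothelin B receptor, which marks neural crest derivatives and astroglial precursors, had 27.8, 18.3 and 46.4 FPKM in controls against 118, 78.7 and 135 FPKM in SMA. Slc15a2, a peptide transporter of glia, had 5.28, 3.32 and 3.78 against 19.3, 10.5 and 18.6 FPKM. In both genes SMA library 2 was the lowest of the SMA libraries and still above every control library. Itgb8, the integrin beta subunit that activates latent TGF-beta, had 8.03, 8.06 and 18.2 FPKM in controls against 37.3, 23.6 and 36.3 FPKM in SMA. Lpar1, a receptor for lysophosphatidic acid, had 14.1, 11.5 and 11.7 against 25.5, 20.8 and 28.5 FPKM, and its SMA mean was 2.01 times the control mean. Nkain4, a membrane protein that interacts with the sodium pump, had 2.18, 3.44 and 2.16 against 9.27, 6.82 and 11.5 FPKM. Megf10, an engulfment receptor of astrocytes, had 4.44, 4.71 and 6.36 against 10.3, 8.75 and 10.4 FPKM. Rnh1, the ribonuclease inhibitor, varied little within either group, with 16.7, 15.3 and 13.8 FPKM in controls against 23.7, 24.8 and 24.7 FPKM in SMA.

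The remaining members of this set were Armc2, Plce1, Pald1, 1700084C01Rik, Fam122b, 1700009P17Rik, Mro, Paqr7, the linker histone gene Hist1h1e, the noncoding RNA Sox2ot and the pseudogene Rps19-ps5. Sox2ot had 4.34, 5.75 and 6.16 FPKM in controls against 16.8, 9.48 and 17.6 FPKM in SMA. Its locus (chromosome 3, 34104438 to 34682619) contains Sox2, so without a known strand setting reads of Sox2 and Sox2ot cannot be told apart. Rps19-ps5 is a processed copy of a ribosomal protein gene, and its value is uncertain because reads can be shared with Rps19.

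**Figure D2:**
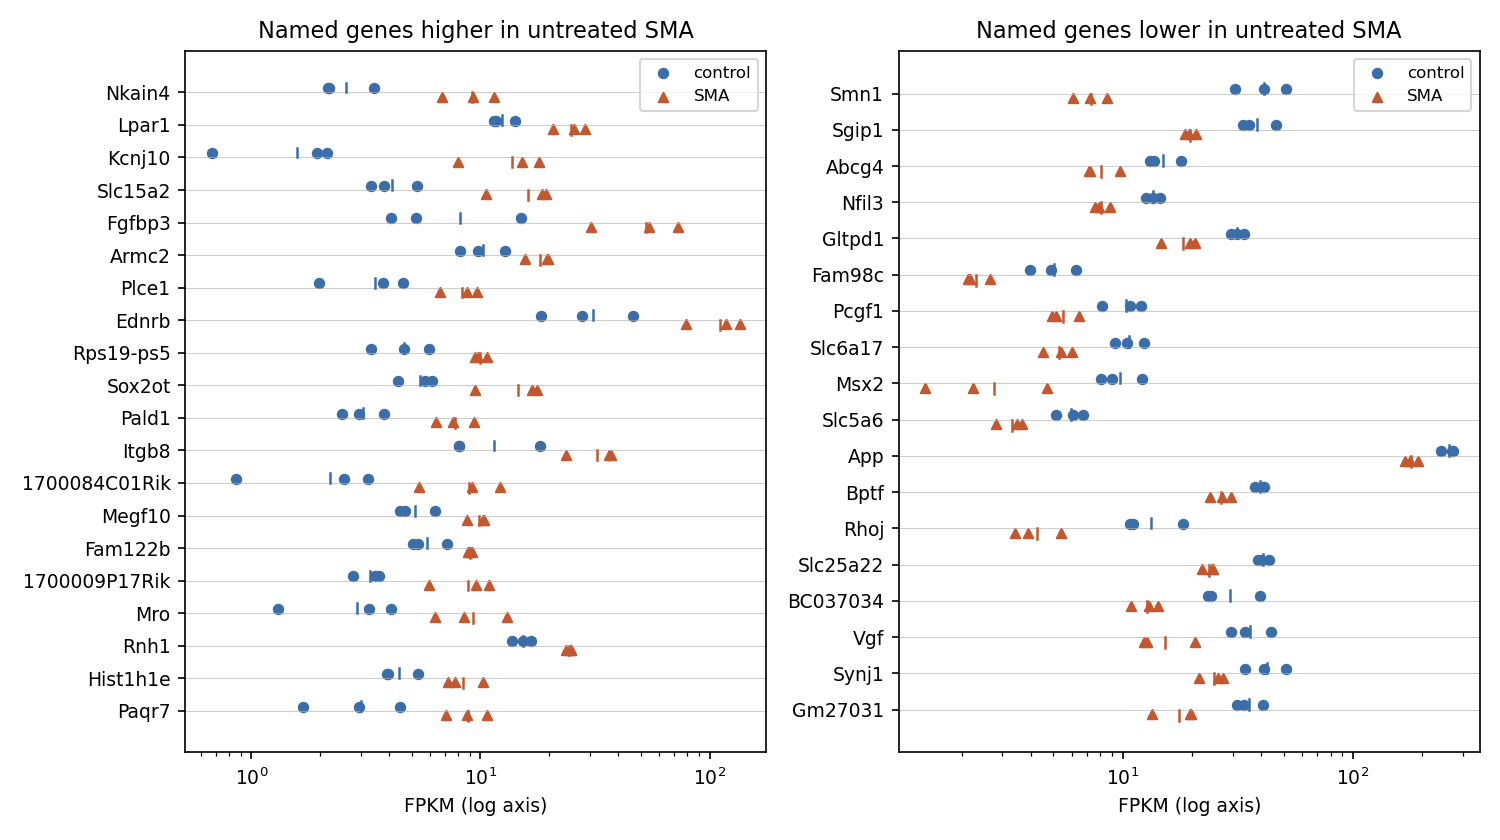
FPKM on a log axis in each untreated library, with circles for control and triangles for SMA, and a short bar at each group mean, for the 20 genes higher (left) and 18 of the 20 genes lower (right) in SMA. By the way the genes were chosen no control value lies within the SMA range, and Kcnj10, Fgfbp3 and Smn1 have the widest gaps between the means.

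The 20 genes chosen in the same way downward included, after Smn1, several genes of synaptic vesicles and transport. The other 19 had an adjusted p of 0.217 (limma) and log2 differences from -1.55 to -0.50. Sgip1, an endocytic adaptor of synaptic vesicles, had 46.4, 33.4 and 35.4 FPKM in controls against 19.4, 20.9 and 18.6 FPKM in SMA. The SMA values were close to each other, at 51.2% of the control mean. Synj1, the lipid phosphatase that uncoats endocytic vesicles, had 51.4, 41.2 and 33.9 against 21.4, 27.1 and 26.0 FPKM. Slc6a17, a vesicular amino acid transporter of neurons, had 12.4, 10.4 and 9.24 against 4.49, 6.04 and 5.38 FPKM. Control library 1 was the highest library for all 3 of these genes, but the gap to the SMA values was present in each control library.

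App, the amyloid precursor protein, was the most abundant gene of the set, with 273, 271 and 240 FPKM in controls against 169, 192 and 178 FPKM in SMA. Its log2 difference was -0.50 ± 0.11 (SE). Vgf, a secreted neuropeptide precursor that responds to neurotrophins, had 44.0, 33.9 and 29.4 against 12.3, 20.6 and 12.7 FPKM. These values did not overlap, and SMA library 2 was the highest SMA library for both. Msx2, a homeobox target of bone morphogenetic proteins, had 8.99, 12.1 and 8.02 against 1.38, 4.68 and 2.23 FPKM. Nfil3, a leucine zipper repressor, had 14.5, 13.5 and 12.6 against 7.55, 8.80 and 7.85 FPKM. Rhoj, a small GTPase best known from endothelial cells, had 10.7, 18.2 and 11.1 against 3.88, 5.41 and 3.41 FPKM. Bptf, the largest subunit of the NURF chromatin remodeller, had 37.5, 41.0 and 40.5 against 24.0, 29.5 and 27.1 FPKM. Abcg4, Gltpd1, Fam98c, Pcgf1, Slc5a6, Slc25a22, BC037034 and Gm27031 were also in the set.

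The libraries that had received R-Roscovitine give a second reading of the same genotypes. In them 9.55% of tested genes were higher in SMA without overlap and 7.99% lower. Of the 20 higher genes, 19 were again higher without overlap, the exception being Armc2. Of the 20 lower genes, 9 were again lower without overlap, among them Smn1, Sgip1, Msx2, App and Synj1, and all 40 means kept their direction. For several lower genes treated SMA library 2 lay with the controls: Vgf had 16.3, 40.1 and 17.9 FPKM in treated SMA and 41.8, 40.3 and 36.5 FPKM in treated control libraries, and Slc25a22 had 27.6, 41.6 and 29.0 against 50.5, 43.0 and 34.5 FPKM. This is not an independent repeat. Treated libraries shared in the estimate of spread by which the genes were ranked, and a treated library deviated together with the untreated one of its genotype and number (correlations from 0.237 to 0.597 across genes), so they may share a culture. Same-numbered libraries of opposite genotype had correlations from -0.06 to 0.32, so the 2 ranges overlap. The test of whether the genotype difference changed with treatment called 0 genes (limma, lowest adjusted p = 1), with 285 genes at an unadjusted p under 0.05, 3 of the 40 named genes among them. That fit ignores the resemblance of treated and untreated libraries of 1 number. With each such pair as a random effect, an alternative chosen after seeing the data, limma again called 0 genes (lowest adjusted p = 0.659), with 801 at an unadjusted p under 0.05 (5.35% of those tested), 8 of the 40 named genes among them.

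The label of motoneuron culture was checked against marker genes. Of 20 motoneuron markers found in the tables, 12 reached the level for testing. Mnx1, the homeodomain factor of postmitotic motoneurons, and Chat, which makes acetylcholine, were listed at 0 in all 6 untreated libraries. Isl1, Isl2, Lhx3, Lhx4, Slc5a7 and Calcb stayed under 1 FPKM in all 6. The defining motoneuron genes were thus absent or near 0 in both genotypes, whereas Tuba1a, a tubulin of young neurons, had 1801 to 2627 FPKM, and Vim, the intermediate filament of progenitors, glia and mesenchyme, had 1933 to 3278 FPKM. Under 1 FPKM in all 6 untreated libraries were 7 of 9 endothelial markers, 8 of 11 macrophage and microglia markers, 5 of 6 skeletal muscle markers and all 6 erythroid markers. In bulk RNA, fewer cells of a type and less RNA per cell of that type cannot be told apart, which holds for every cell type list below.

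**Figure D3:**
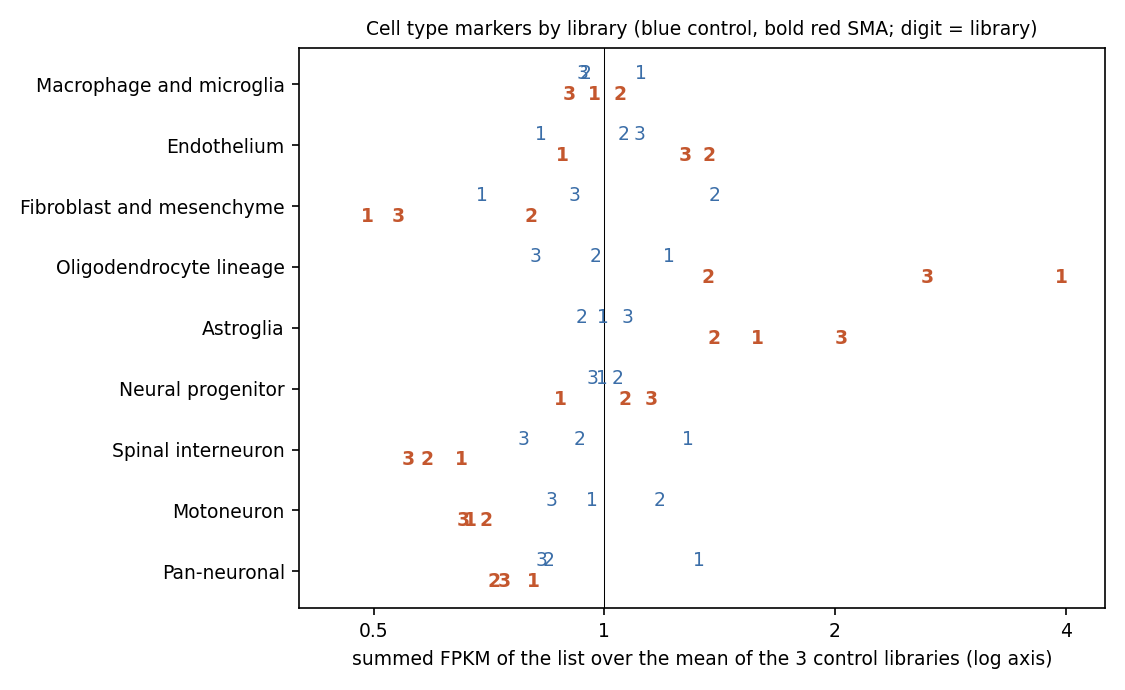
Summed FPKM of each cell type marker list in each untreated library, divided by the mean of the 3 control libraries, on a log axis; digits are library numbers, blue for control and bold red for SMA. The pan-neuronal, motoneuron and interneuron sums lie lower in all 3 SMA libraries than in any control library, and the astroglia and oligodendrocyte lineage sums lie higher. The defining motoneuron genes were absent or near 0, so the motoneuron sum rests on the other listed genes. Olig1 alone makes up most of the oligodendrocyte lineage sum in each SMA library.

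Neural progenitor markers lay mostly higher in SMA. Of 19 tested, 13 were higher in SMA without overlap and 0 lower, with a median log2 difference of 0.82 against -0.01 for all tested genes. The 13 tested transcription factors held 9 of these. Olig1 and Olig2, paired factors of the ventral domain that gives motoneurons and then oligodendrocytes, were far apart between genotypes. Olig1 had 8.07, 3.97 and 5.35 FPKM in controls against 49.1, 13.5 and 31.8 FPKM in SMA. Olig2 had 2.30, 1.16 and 1.54 against 12.6, 4.06 and 9.05 FPKM. In both genes SMA library 1 was highest and SMA library 2 lowest. Prom1, a membrane protein of apical progenitors, had 10.6, 10.2 and 13.9 against 17.6, 18.8 and 26.2 FPKM. The 2 filament genes of the list overlapped: Nes, the progenitor filament nestin, had 49.9, 59.6 and 63.5 against 63.1, 56.9 and 46.2 FPKM, and Vim was lowest in SMA library 1. Because Vim outweighs the other members, the summed level of the list overlapped too, at 3446 to 3715 FPKM in controls against 3127 to 4111 FPKM in SMA.

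Astroglia markers showed the same direction. Of 15 tested, 10 were higher without overlap and 0 lower, with a median of 0.80, and their summed level was 327 to 375 FPKM in controls against 487 to 714 FPKM in SMA. Ttyh1, a volume-regulated anion channel, had 64.7, 22.1 and 33.3 FPKM in controls against 118, 64.4 and 168 FPKM in SMA as deposited. SMA library 2 and control library 1 were level before scaling, and the groups were apart after it. Mlc1, found in the endfeet of astrocytes, had 4.22, 2.74 and 2.74 against 10.1, 6.20 and 10.6 FPKM. Nfia, a factor that starts gliogenesis, had 33.9, 36.8 and 37.3 against 51.6, 53.9 and 80.6 FPKM. Gfap, the filament of mature astrocytes, had 0.25, 0.27 and 0.30 against 3.25, 0.41 and 2.68 FPKM, so that its difference rested mainly on SMA libraries 1 and 3. Among untreated libraries only these 2 reached 1 FPKM, the level for testing. Slc1a2, the main glutamate transporter of mature astrocytes, overlapped, with 12.9, 14.9 and 12.3 against 16.9, 10.2 and 8.85 FPKM.

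Genes of glial lipid handling and metal buffering lay on the same side. Of 15 tested, 7 were higher without overlap and 0 lower, with a median of 0.42. Fabp7, the fatty acid binding protein of radial glia, had 202, 165 and 240 FPKM in controls against 854, 324 and 416 FPKM in SMA. Dbi, which binds acyl-CoA, had 998, 1013 and 876 against 1978, 1387 and 2045 FPKM. Mt3, a metallothionein of the brain, had 838, 425 and 437 against 1018, 890 and 1407 FPKM. For all 3 genes each SMA library lay above every control library. Fabp7 was also counted among the neural progenitor markers. Gstm1, a glutathione transferase, was low in SMA library 1 alone, with 291, 272 and 262 against 107, 269 and 264 FPKM. Of 13 markers of the oligodendrocyte lineage, 8 stayed under 1 FPKM in all 6 untreated libraries, and Mbp, the myelin basic protein, had 5.31, 4.10 and 2.57 against 2.60, 1.89 and 2.41 FPKM.

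**Figure D4:**
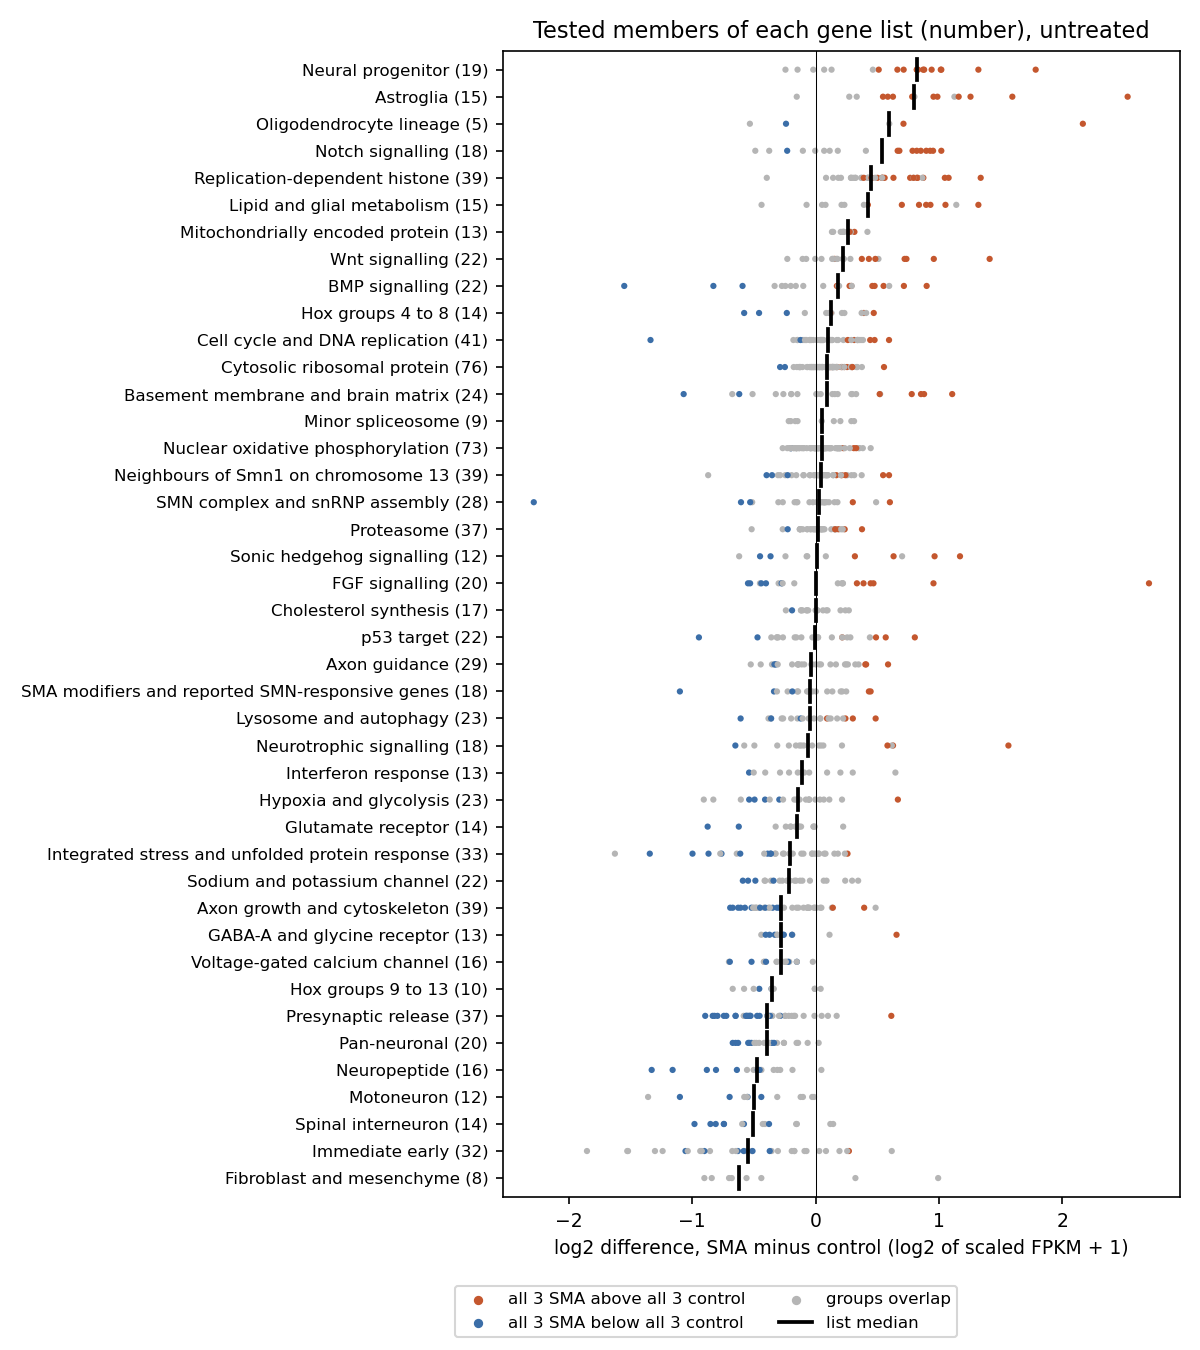
Each point is a tested member of a gene list with its log2 difference of SMA minus control, red where all 3 SMA libraries lay above all 3 control libraries, blue where all lay below, grey where the groups overlapped, with the list median as a black bar and the number of tested members in parentheses. Progenitor and astroglia markers have the highest medians among lists of 10 or more members, and immediate early, interneuron and motoneuron genes the lowest.

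Notch signalling was represented from ligand to target. Notch1, Hes1 and Hes5 were also counted among the neural progenitor markers, so these lists are not separate. Cells that express Delta ligands activate Notch receptors on their neighbours, and the receptor's released intracellular part joins the DNA-binding protein RBPJ at Hes and Hey genes. Of 18 tested genes, 9 were higher without overlap and 1 lower, with a median of 0.54 (0.33 without SMA library 3). Dll1, a Delta ligand of new neurons, had 6.0, 3.73 and 5.74 FPKM in controls against 10.5, 8.35 and 10.3 FPKM in SMA. Jag1 and Jag2, the ligands of the Jagged type, overlapped. The receptor gene Notch1 had 26.0, 23.9 and 22.5 against 39.5, 38.2 and 49.1 FPKM, and Notch3 had 3.33, 2.33 and 2.62 against 3.53, 4.42 and 7.15 FPKM, whereas Notch2, at 12.4 to 15.2 against 12.1 to 15.7 FPKM, overlapped. Lfng, which glycosylates Notch, had 10.003, 9.41 and 7.39 against 22.2, 12.9 and 18.0 FPKM.

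Of the 6 tested Notch targets, 4 were higher without overlap. Nrarp, a feedback inhibitor, had 2.78, 2.59 and 3.54 FPKM in controls against 4.84, 5.22 and 10.4 FPKM in SMA. Hey2, a repressor of neuronal differentiation, had 1.43, 2.12 and 2.74 against 4.18, 3.35 and 5.06 FPKM. Hes5, the target most tied to progenitors, was low in every library, with 0.48, 0.03 and 0.21 against 1.12, 0.77 and 2.95 FPKM. Among untreated libraries Hes5 reached 1 FPKM in SMA alone, so its difference is tied to the filter for testing. Hes1, which other signals also drive, overlapped, with 14.7, 33.0 and 23.7 against 21.5, 24.5 and 23.5 FPKM. RefSeq sequence of the 250 bases before the start (GRCm38.p6) was at hand for 4 of 7 listed targets, and 3 that differed between the genotypes are printed to show where the core RBPJ motif TGGGAA, or TTCCCA on the other strand, lies, in capitals. Hes5 (chr4:154960673-154960922, plus strand) holds 2 matches, which begin 226 and 82 bases before the start, Hey2 (chr10:30842784-30843033, minus strand) holds 1, which begins 207 bases before it, and Nrarp (chr2:25180508-25180757, plus strand) holds 0. Hes6, whose sequence is not printed, holds 0 matches in each of its upstream regions.
Hes5: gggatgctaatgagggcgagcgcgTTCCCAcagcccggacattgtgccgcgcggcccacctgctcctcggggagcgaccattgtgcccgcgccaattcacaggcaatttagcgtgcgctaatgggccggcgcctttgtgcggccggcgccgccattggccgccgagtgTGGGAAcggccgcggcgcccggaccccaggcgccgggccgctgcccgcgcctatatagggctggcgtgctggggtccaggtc
Hey2: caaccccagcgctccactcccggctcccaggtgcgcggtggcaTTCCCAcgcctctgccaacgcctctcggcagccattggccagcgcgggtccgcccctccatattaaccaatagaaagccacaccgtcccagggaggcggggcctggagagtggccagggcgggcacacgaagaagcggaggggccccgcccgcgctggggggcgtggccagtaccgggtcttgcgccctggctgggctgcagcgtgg
Nrarp: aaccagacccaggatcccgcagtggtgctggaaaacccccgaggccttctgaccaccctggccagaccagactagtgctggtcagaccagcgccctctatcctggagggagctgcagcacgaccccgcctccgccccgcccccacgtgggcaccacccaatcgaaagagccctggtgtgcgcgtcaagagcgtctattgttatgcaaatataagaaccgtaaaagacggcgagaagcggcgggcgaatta
Of all 32851 such regions in the table, 21.6% hold at least 1 match and 2.77% more than 1, so a match is common by its length alone, and the letters say nothing of binding in these cultures.

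The Sonic hedgehog list was split, with 4 of 12 genes higher and 2 lower without overlap and a median of 0.01. Ptch1 and Gli1, which respond directly to the pathway, were higher. Ptch1, the receptor, had 17.8, 12.5 and 16 FPKM in controls against 28.6, 28.4 and 50.8 FPKM in SMA. Gli1, a transcription factor, had 1.44, 1.46 and 1.43 against 2.90, 3.63 and 4.65 FPKM. Their SMA means were 2.33 and 2.58 times the control means. Shh, the ligand, had 6.77, 13.2 and 16.1 against 17.6, 19.2 and 16.2 FPKM, where control library 3 lay next to SMA library 3. Hhip, a membrane protein that binds the ligand and is itself a target, was lower, with 8.53, 10.8 and 9.15 against 5.68, 8.02 and 5.87 FPKM. Thus the targets did not all lie on the same side.

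Of 22 Wnt genes, 8 were higher without overlap and 0 lower, with a median of 0.22. The median was 0.15 without SMA library 3 and 0.35 without SMA library 1. The 8 were the ligands Wnt5a, Wnt7a and Wnt7b, the receptors Fzd3, Fzd5 and Fzd8, the feedback regulator Nkd1 and Ctnnb1, the beta-catenin gene. Wnt7a had 2.27, 1.31 and 3.21 FPKM in controls against 6.33, 5.68 and 10.3 FPKM in SMA, and Wnt7b had 4.15, 2.80 and 3.49 against 9.03, 4.63 and 9.57 FPKM. Fzd3, a receptor that guides axons, had 22.3, 21.1 and 29.9 against 40.0, 35.0 and 43.3 FPKM. Axin2, a common readout of canonical Wnt signalling, overlapped, with 6.75, 4.43 and 5.72 against 4.12, 5.53 and 5.69 FPKM.

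Bone morphogenetic protein (BMP) genes had 8 of 22 higher and 3 lower without overlap (median 0.18, and 0.02 without control library 3). Nog, the secreted antagonist noggin, had 3.37, 4.97 and 5.86 FPKM in controls against 7.03, 8.47 and 8.69 FPKM in SMA, while Grem1, another antagonist, had 2.2, 2.40 and 1.23 against 0.888, 0.728 and 0.265 FPKM. Among untreated libraries Grem1 reached 1 FPKM, the level for testing, in controls alone. The targets went both ways: Msx2 was lower, as given above, and Id4 had 15.7, 10.5 and 14.0 against 28.2, 17.2 and 31.3 FPKM. Genes of fibroblast growth factor signalling were split, with 6 of 20 higher and 5 lower (median 0.00). Fgfr3, a receptor of astroglial precursors also counted among the astroglia markers, had 9.0, 6.16 and 11.1 against 14.6, 16 and 20.9 FPKM. The feedback inhibitors Spry4 and Spred3 lay on the other side, Spry4 with 9.99, 11.6 and 8.81 against 5.75, 8.31 and 5.65 FPKM and Spred3 with 22.3, 18.6 and 18.1 against 10.3, 15.1 and 13.1 FPKM.

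Neuronal genes lay mostly lower in SMA. Of 20 pan-neuronal genes, 8 were lower without overlap and 0 higher, with a median of -0.40. Control library 1 stood out, and without it the median was -0.19. Ina, the neuronal filament internexin, had 121, 76.9 and 76.1 FPKM in controls against 54.8, 52.4 and 54.5 FPKM in SMA. Snap25, a SNARE protein of the presynaptic membrane, had 125, 83.9 and 83.5 against 68.9, 56.3 and 52.6 FPKM. Ncam1, an adhesion molecule also found on progenitors, overlapped, with 108, 85.3 and 84.5 against 90.3, 89.1 and 93.1 FPKM. Of 12 tested motoneuron markers, 4 were lower without overlap and 0 higher (median -0.50, and -0.27 without control library 2). Chodl, a lectin of fast motoneurons, was among them, with 7.32, 18.1 and 9.82 against 3.87, 6.23 and 3.60 FPKM. The defining genes Mnx1, Chat, Isl1, Isl2, Lhx3, Lhx4 and Slc5a7 were too low for testing. The 12 tested markers therefore do not show whether motoneurons differed. Of 14 spinal interneuron markers, 7 were lower without overlap and 0 higher (median -0.51). Slc6a5, the glycine transporter of inhibitory neurons, had 28.6, 27.1 and 21.6 against 15.6, 16.3 and 11.8 FPKM, and Tlx3, a fate factor of excitatory dorsal neurons, had 9.89, 5.53 and 4.18 against 2.95, 3.23 and 1.66 FPKM.

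Genes of transmitter release lay mostly lower in SMA. Of 37 presynaptic genes, 18 were lower and 1 higher without overlap, with a median of -0.39 (-0.27 without control library 1). By role, 6 of 9 SNARE proteins and fusion regulators, 9 of 20 vesicle proteins and 3 of 8 active zone proteins were lower without overlap. Syn1, the vesicle tether synapsin I, had 93.8, 80.4 and 57.3 FPKM in controls against 39.9, 41.4 and 42.2 FPKM in SMA. Rab3a, the vesicle GTPase, had 149, 105 and 77.8 against 60.6, 61.6 and 62.4 FPKM. In both genes the SMA libraries were nearly equal and the control libraries spread widely. The 1 higher gene was Sv2b, a vesicle glycoprotein, with 2.05, 1.33 and 2.02 against 3.27, 2.48 and 3.86 FPKM.

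Secreted peptides of neurons followed. Of 16 tested neuropeptide and granin genes, 7 were lower without overlap and 0 higher (median -0.47, and -0.29 without control library 1). Chgb, a granin that loads dense-core vesicles, had 44.3, 34.3 and 31.3 FPKM in controls against 20.8, 18.7 and 16.6 FPKM in SMA. Scg2, a related granin, had 69.8, 73.7 and 57.4 against 44.8, 38.3 and 28.3 FPKM. Adcyap1, the peptide PACAP, had 11.9, 14.7 and 7.89 against 5.22, 4.36 and 2.15 FPKM. None of these values overlapped between the genotypes.

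Channels and receptors showed smaller differences. Of 16 voltage-gated calcium channel genes, 5 were lower without overlap and 0 higher (median -0.29, and -0.14 without control library 1). Cacna1b, the pore of the presynaptic Cav2.2 channel, had 18.3, 12.7 and 11.4 FPKM in controls against 7.22, 9.54 and 10.9 FPKM in SMA, with control library 3 beside SMA library 3. Cacna2d2, an auxiliary subunit, had 25.3, 11.8 and 15.2 against 10.2, 9.01 and 9.52 FPKM. Of 13 GABA-A and glycine receptor genes, 6 were lower and 1 higher (median -0.28), and the higher one, Gabrg1, a subunit also known from glia, had 1.01, 1.25 and 1.70 against 2.99, 1.99 and 2.78 FPKM. Of 14 glutamate receptor genes, 2 were lower, both of the NMDA type. Grin1, the obligate NMDA subunit, had 25.2, 17 and 12.7 against 8.71, 7.84 and 10.2 FPKM. Of 22 sodium and potassium channel genes, 4 were lower and 0 higher (median -0.21). Over all tested genes 10.1% were lower and 9.77% higher without overlap, and the glutamate receptor count was near that share.

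Among 39 genes of axon growth and the cytoskeleton, 11 were lower and 2 higher without overlap (median -0.28, and -0.20 without control library 1). Crmp1, a growth cone protein of the semaphorin response, had 132, 91.9 and 96.4 FPKM in controls against 53.4, 66.8 and 70.0 FPKM in SMA. Map6, which stabilises microtubules, had 75.2, 70.6 and 67.3 against 38.0, 55.2 and 43.0 FPKM. Axon guidance genes had a median of -0.04, with 3 of 29 higher and 2 lower, near or under the 9.77% and 10.1% of all tested genes. Ntrk2, the receptor TrkB for brain-derived neurotrophic factor, which astroglia also express in truncated form, had 27.1, 19.0 and 23.8 against 31.6, 30.2 and 45.3 FPKM. Gfra2, the co-receptor for neurturin, had 19.1, 15.2 and 14.0 against 8.45, 10.1 and 9.97 FPKM. Ntrk2 and Gfra2 thus stood on opposite sides of a neurotrophic list of 18 genes with a median of -0.06.

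Immediate early genes, which neuronal activity and growth factors induce within minutes, had a median of -0.55 over 32 members, with 6 lower and 1 higher without overlap. Much of this came from control library 2, and without it the median was -0.33. Fos had 50.6, 82.5 and 8.51 FPKM in controls against 15.6, 7.53 and 4.63 FPKM in SMA, and Egr1 had 87.2, 198 and 17.4 against 52.7, 18.1 and 18.2 FPKM. Control library 3 lay within or near the SMA range in both, so the groups overlapped. Atf3, a stress-induced factor, did not overlap, with 2.59, 5.67 and 3.83 against 0.96, 2.31 and 0.89 FPKM. Sik1, a kinase induced by cAMP, had 7.75, 7.55 and 5.99 against 4.01, 4.93 and 4.63 FPKM.

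The integrated stress and unfolded protein responses lay partly lower in SMA. Of 33 genes, 8 were lower and 1 higher without overlap (median -0.21, and -0.32 without SMA library 2). Of 11 targets and amino acid synthetic enzymes, 4 were lower, and of 8 transcription factors, 3. Atf4, the central factor of the integrated stress response, had 207, 137 and 199 FPKM in controls against 90.5, 131 and 87.9 FPKM in SMA, where SMA library 2 lay beside control library 2. Ddit3, the factor CHOP, had 23.1, 20.8 and 28.9 against 9.27, 14.9 and 10.1 FPKM. Chac1, a glutathione-degrading enzyme downstream of Atf4, had 18.8, 8.88 and 19.4 against 4.14, 8.18 and 3.78 FPKM. The 14 chaperone and degradation genes had a median of -0.07, and Hspa5, the chaperone BiP, overlapped after scaling, with as deposited 293, 311 and 367 against 244, 292 and 251 FPKM. Herpud1, which acts in degradation at the endoplasmic reticulum, was the 1 of these that was lower, with 35.3, 43.3 and 43.3 against 18.0, 26.2 and 19.8 FPKM.

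The partners of SMN in snRNP assembly had a median of 0.04. Of 27 tested besides Smn1, 2 were higher and 2 lower without overlap, no more than the 9.77% and 10.1% of all tested genes. Gemin5, which recognises small nuclear RNAs, had 7.41, 7.79 and 8.76 FPKM in controls against 4.16, 5.09 and 6.05 FPKM in SMA. Gemin8 had 8.06, 8.56 and 8.04 against 10.5, 9.22 and 10.5 FPKM. Gemin5 was lower and Gemin8 higher in each SMA library than in any control library. Of the 8 genes of the Sm ring, Snrpn, its neuronal member, was the 1 that did not overlap, with 112, 98.1 and 88.4 against 66.3, 59.4 and 63.3 FPKM. Snrpa1, a protein of the U2 particle, had 21.8, 27.5 and 32.8 against 36.9, 41.7 and 42.6 FPKM. All 9 tested genes of the minor spliceosome overlapped between the genotypes (median 0.05), and Snrnp25 had the largest difference, with 17.3, 12.9 and 11.9 against 19.1, 16.3 and 15.5 FPKM. Of 18 modifiers of the disease and genes reported to respond to SMN, 2 were higher and 3 lower without overlap, with Ctnnb1 at 118, 135 and 142 against 162, 161 and 195 FPKM. Uchl1 and Uba1, of the ubiquitin pathway, were lower, Uchl1 with 798, 455 and 485 against 437, 430 and 423 FPKM and Uba1 with 149, 158 and 145 against 118, 133 and 134 FPKM.

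Replication-dependent histone genes lay mostly higher in SMA. Of 39 tested, 16 were higher without overlap and 0 lower (median 0.45), and 18 of the 59 listed stayed under 1 FPKM in all 6 untreated libraries. These messages lack a poly(A) tail, and the genes are near-identical copies whose reads can be shared, so single values are uncertain. Hist1h1e had 5.34, 3.92 and 3.96 FPKM in controls against 10.2, 7.21 and 7.70 FPKM in SMA. Cell cycle and replication genes lay closer to 0, with 5 of 41 higher and 2 lower (median 0.10). These counts were near or under the shares of all tested genes, 9.77% higher and 10.1% lower. Ccnd1, cyclin D1, had 94.3, 150 and 124 against 30.2, 80.7 and 38.9 FPKM, while Ccnb1, cyclin B1, had 43.9, 54.6 and 75.4 against 89.4, 84.3 and 77.0 FPKM. The p53 targets had 4 of 22 higher and 2 lower (median 0.00): Trp53inp1 had 15.5, 22.8 and 26.6 against 37.9, 35.5 and 36.2 FPKM, and Cdkn1a, the inhibitor p21, overlapped with 156, 192 and 164 against 105, 160 and 138 FPKM.

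Housekeeping lists stayed near 0. The medians were 0.09 for 76 cytosolic ribosomal protein genes, 0.05 for 73 nuclear genes of oxidative phosphorylation, 0.02 for 37 proteasome genes, 0.00 for 17 genes of cholesterol synthesis and -0.05 for 23 lysosome and autophagy genes. The 13 proteins encoded by mitochondrial DNA had a median of 0.26, all 13 above 0, with 2 higher without overlap. That median was 0.15 without SMA library 1 and 0.00 with quantile normalization, and mt-Co1 overlapped after scaling, with as deposited 20651, 22333 and 21446 FPKM in controls against 27194, 22440 and 23696 FPKM in SMA. Glycolysis and hypoxia genes had a median of -0.14 and interferon targets -0.11, the latter 0.001 without control library 2, in which B2m had 1136 FPKM against 421 and 524 FPKM in the other controls. Sqstm1, the autophagy adaptor p62, had 128, 119 and 121 against 87.3, 102 and 88.2 FPKM, and Lamp2, a lysosomal membrane protein, had 57.4, 86.0 and 75.5 against 110, 87.9 and 98.1 FPKM.

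Matrix genes lay on both sides. Of 24 tested, 5 were higher and 2 lower without overlap (median 0.09). Nid1, a basement membrane linker, had 28.1, 17 and 25.9 FPKM in controls against 46.0, 34.3 and 44.9 FPKM in SMA, and Ptprz1, a receptor phosphatase of radial glia, had 13.9, 8.63 and 14.8 against 32.8, 19.3 and 29.2 FPKM. Lama4, a laminin of vessels and mesenchyme, had 1.45, 5.86 and 2.50 against 1.12, 0.80 and 0.59 FPKM. The 8 tested fibroblast markers overlapped without exception, with a median of -0.62 that was -0.16 without control library 2: Col1a1, the collagen of fibroblasts, had 8.86, 63.1 and 16.8 against 10.6, 18.1 and 7.10 FPKM. Their summed level was 175 to 352 FPKM in controls against 124 to 203 FPKM in SMA, and its part in the matrix and immediate early results was not tested.

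Hox genes carry the position of neural tissue along the body axis. Of 14 tested genes of Hox groups 4 to 8, which mark cervical to thoracic levels, 3 were higher and 3 lower without overlap (median 0.12). Hoxc8 had 82.4, 134 and 133 FPKM in controls against 155, 146 and 158 FPKM in SMA, and Hoxb8 had 237, 150 and 169 against 128, 139 and 119 FPKM. Of 10 tested genes of groups 9 to 13, which mark more caudal levels, 2 were lower and 0 higher (median -0.36, and -0.15 without SMA library 1). Hoxb9 had 206, 153 and 192 against 127, 148 and 113 FPKM, with SMA library 2 next to control library 2. The share of the cord that each culture held is not given in the labels, and its part in these values was not tested.

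Genes near the targeted locus were examined because a null allele carries flanking sequence with it. Of 39 tested genes within 3 Mb of Smn1, 5 were higher and 3 lower without overlap, with a median of 0.04. These counts were near the shares of all tested genes, 9.77% higher and 10.1% lower. Ccnb1, given above, and Fcho2, an endocytic adaptor with 5.83, 8.35 and 9.10 FPKM in controls against 12.0, 9.82 and 12.2 FPKM in SMA, had the lowest p among those higher. Enc1, an actin-binding protein of the nervous system, was lower, with 83.2, 93.2 and 78.0 against 64.8, 66.0 and 55.9 FPKM. Chromosome 13 as a whole had 12.3% of 601 tested genes higher and 8.32% lower without overlap, and chromosome 3, which does not carry Smn1, had 15.0% of 708 genes higher and 8.62% lower.

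Over all tested genes, the direction of difference varied with gene type, and the share not overlapping varied with length. Among 12675 protein-coding genes, 9.5% were higher and 11.1% lower in SMA without overlap. Among 1411 processed pseudogenes the shares were 11.1% and 4.25%, and among 184 long intergenic noncoding RNAs 15.8% and 4.89%. Among 3169 protein-coding genes with loci of 61.6 kb or more, 333 were higher and 425 lower, against 278 and 318 of the 3169 with the shortest loci. Both counts were thus larger for long loci, while the median log2 differences were alike, at -0.033 for the longest and -0.035 for the shortest. When all tested genes were split by mean FPKM into 4 bins of like size, 345 to 392 genes per bin were higher and 359 to 401 lower. These shares are descriptions of the 6 untreated libraries and carry no test.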

How the data were processed

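Sequencing of mRNA gave 12 libraries, and the 6 untreated ones, 3 per genotype, are compared here. Per the labels' protocols, RNA was prepared with a Nucleospin RNA kit and libraries with the Lexogen mRNA-Seq Library Prep Kit V2. Reads were referred to the build GRCm38, and Cufflinks 2.2.1, FastQC 0.10.1 and Trim Galore 0.4.0 were used, per the submitters' processing notes. Not given in the sources used here were aligner settings, annotation release and strand. For each library the authors deposited 1 table with FPKM per gene and the Cufflinks interval, per the file headers. Such values are corrected for transcript length and depth but keep no read counts, so tests for counts were not used. Depth was estimated from the steps between low values, of which 34.9% to 37.5% came out whole within 0.01 reads.

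FPKM of the 19 gene identifiers on several rows were summed, which left 39174 identifiers. Genes with at least 1 FPKM in at least 3 of 12 libraries were tested, without small RNA genes. Values were scaled by the median of ratios. Limma 3.58.1 (R 4.3.3) was fitted to log2(scaled FPKM + 1) over all 12 libraries with 4 group means, which share 1 estimate of the spread, and p-values were adjusted by Benjamini-Hochberg with a threshold of 0.05. Printed FPKM are as deposited, and overlap was judged on scaled values. Summaries and plots used Python 3.11.15, pandas 2.3.3, numpy 2.4.6 and matplotlib 3.10.9, and the scripts were tested on simulated data.

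The genes named are Smn1, the 20 of lowest p in each direction without overlap and with a mean of at least 5 FPKM in 1 group, and, for each list, those of lowest p and highest level. Further list members were named after their values were seen. Values of a few of these genes are not reported here. The members and lists were chosen with earlier results of these data known. Alternatives covered the libraries fitted, the replicate block, weights, pseudocount, filter, scaling and leaving out each library.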

Additional observations from a re-analysis of the deposited data

How the results depend on the processing

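Smn1 passed the threshold in all 26 alternatives. The count of genes called was 1 in the main analysis and in most alternatives, and it rose in 4. The labels do not say whether a replicate number pairs libraries of the 2 genotypes. For the same-numbered untreated libraries the correlations of deviations were -0.06, 0.14 and -0.01. Over all 12 same-numbered pairs of opposite genotype, treated ones included, they ran from -0.06 to 0.32. Pairs of different number were not set beside them, so these values cannot decide whether the numbers mark pairs. With the replicate block 327 genes were called (142 higher, 185 lower), and 41 with the replicate block in the 6 untreated libraries alone (28 higher, 13 lower). Library weights gave 467 calls (267 higher, 200 lower), with control library 1 weighted at 0.304. Leaving out 1 library gave 1 to 4 calls, with 4 (Smn1, Slc15a2, Nkain4 and Kcnj10) without treated SMA library 2. With a common sum per library, 929 genes were higher without overlap. The 39 other named genes kept their direction in all 1011 alternative values, of which 91 passed the threshold, 38 of them with the replicate block and 39 with library weights. Of 1092 list medians under alternatives, 49 had the opposite sign. The cause of these differences was not tested. Without counts, the depth behind single values is known only as an estimate.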

Other observations

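PVT1_1, a small RNA feature annotated on chromosome 15 (62038029 to 62038201, GRCm38), was left out of the test with other small RNA genes and is named after its values were seen. PVT1_1 had 13.7, 5.12 and 8.39 FPKM in untreated controls against 2.28, 1.78 and 1.49 FPKM in untreated SMA libraries. In R-Roscovitine libraries PVT1_1 had 4.78, 4.56 and 5.51 FPKM in controls against 6.12, 5.48 and 7.22 FPKM in SMA, and those groups overlapped.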
